A study of Bos taurus with 8 samples.

Results

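The miRNAs described here are the bovine names numbered above miR-2285, that is, every name of the cattle set whose first number is higher than that of the large miR-2284 and miR-2285 family. The choice used the name alone and no measured value. It takes in 178 of the 704 names in the deposited count table, which lists 565 bovine names and 139 human homologues. The other bovine names are 48 of the miR-2284 and miR-2285 family and 339 with lower numbers.

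A miRNA is a short RNA that guides the Argonaute proteins to messenger RNAs and lowers their translation or stability. It is cut as a duplex from a hairpin precursor, and a name ending in -5p or -3p says from which arm of the hairpin the RNA came. Numbers are given in the order of annotation, so a high number marks a miRNA that was added late, often from deep sequencing of one species, and not a family or a function. For most of these names no function is established in cattle. In blood, miRNAs are found inside red blood cells, leukocytes and platelets, and also outside cells in plasma, in vesicles or bound to protein.

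Each of 4 cows (44 to 47) gave 1 small RNA library of plasma and 1 of blood cells, so that the miRNAs of plasma could be set against those of the cells it circulates with. The animals were healthy, female, non-pregnant Holstein-Friesian cross heifers, 20 to 25 months old, with no treatment. Plasma was cleared by 2 rounds of centrifugation and by filtration, and RNA was taken from 0.7 mL. The blood cell fraction was the pellet of red blood cells and buffy coat, brought to 250 μL of suspension for extraction, so it mixes red blood cells, leukocytes and platelets. In such bulk samples fewer cells of a type and less RNA per cell cannot be told apart.

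The 4 plasma libraries held 1453384 to 4296460 reads assigned to miRNAs, and the 4 blood cell libraries held 11169204 to 14471979. Levels are given as RPMM, the normalised reads of the deposited table, which divide the reads of a name by the bovine miRNA reads of its library and by which all listed bovine names of a library sum to 995719 to 999106. On this scale 3 reads were worth 0.696 to 2.07 RPMM in a plasma library and 0.207 to 0.268 RPMM in a blood cell library. Of the markers of the fractions, 3 miRNAs of the red blood cell lineage made up 8.92 to 18.0% of the RPMM of plasma libraries and 48.8 to 56.1% of those of blood cell libraries. 6 leukocyte miRNAs made up 3.21 to 6.84% of plasma libraries and 2.51 to 3.11% of blood cell libraries, with a higher mean in plasma for 5 of the 6. 5 miRNAs of tissues outside blood made up 0.383 to 0.763% of plasma libraries and 0.00419 to 0.00626% of blood cell libraries, with a higher mean in plasma for 5 of 5 and none at 0 in all blood cell libraries. The red blood cell list was lower in plasma for 3 of 3, and what part these differences in cell content have in the results below was not tested.

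Late-numbered names were a small part of both fractions. Their summed level was 4220, 4330, 5051 and 2791 RPMM in plasma of cows 44, 45, 46 and 47, against 4399, 5037, 5701 and 4852 RPMM in the blood cells of the same cows. Plasma was thus below blood cells in each cow, but the ranges of the fractions overlapped. The mean was 4098 ± 946 RPMM in plasma and 4997 ± 541 RPMM in blood cells (SD, n = 4 each), or 0.280 to 0.505% of the reads of a plasma library and 0.440 to 0.571% of those of a blood cell library.

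In each fraction a single miRNA carried most of that sum, miR-6529a in plasma and miR-6119-5p in blood cells. Without these miRNAs the other 176 names summed to 980 ± 142 RPMM in plasma and 1054 ± 69.0 RPMM in blood cells. Over all 8 libraries together, 68 of the 178 names had 1 to 10 reads, 70 had 11 to 100, 26 had more than 100 and up to 1000 and 14 had over 1000. The median name had 20.5 reads and the highest, miR-6119-5p, had 187904.

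The comparison of the fractions asked which names differed between plasma and blood cells of the same cow. A name was tested where 3 or more of the 4 plasma libraries, or of the 4 blood cell libraries, held 25 RPMM or more. 209 of the 704 names passed this filter, and 12 of the 178 late-numbered names (6.74%) were among them, against 184 of the 339 lower-numbered bovine names (54.3%). The other 166 late-numbered names were too low to be tested in this way. 7 of the 12 passed in both fractions, miR-2376 and miR-3431 passed through plasma only, and miR-2336, miR-2457 and miR-2478 passed through blood cells only, so for the last 5 the filter itself favours the direction that was found.

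Reads were compared by the quasi-likelihood test of edgeR with the cow as a block, and a name was called at a Benjamini-Hochberg adjusted p under 0.05 over all 209 names. Libraries were put on one scale by TMM, a trimmed mean of ratios that takes the bulk of names as equal. Scaling by library totals, as RPMM does, gives another zero point, and the 3 red blood cell miRNAs alone take 48.8 to 56.1% of it in blood cells. The median log2 fold change over all 209 names was 0.08 with TMM and 1.76 with library totals. RNA input was equal by volume (5 μL per library) and not by amount, and the spike-in added to the samples is not among the names analysed, so which zero point holds for the amount in blood was not tested. Fold changes of the tested late-numbered names are therefore given on both scales, and those of neighbouring names with TMM alone.

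With TMM, 3 of the 12 tested names were higher in plasma, against 45.5% of all tested names, and 9 were higher in blood cells, against 39.7%. With library totals, 3 of the 12 were called higher in plasma, against 67% of all tested names, and 6 higher in blood cells, against 24.9%. The median log2 fold change of the 12 was -2.38 with TMM, beside 0.08 for all tested names, and -0.71 with library totals, beside 1.76. All 12 had the same direction in 4 of 4 cows on the TMM scale. These counts describe 12 names and say nothing of the 166 that were too low.

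**Figure D1:**
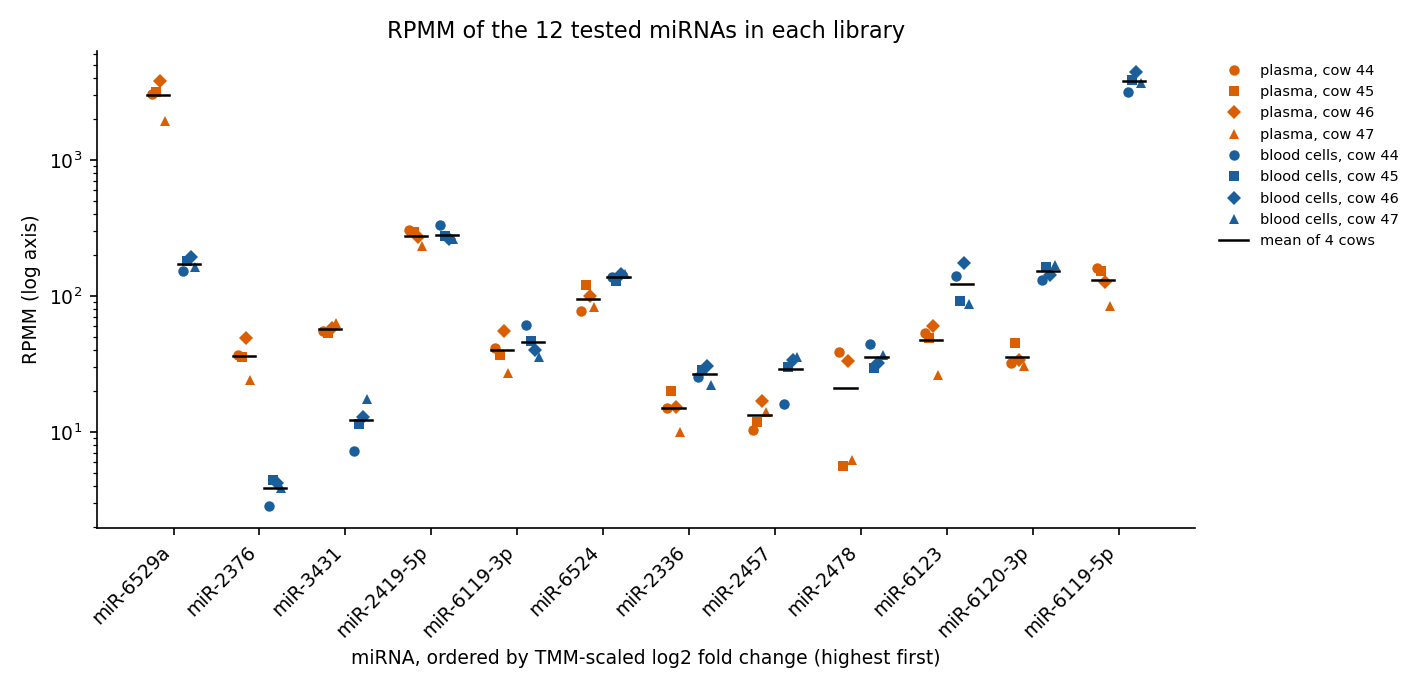
RPMM (log axis) of the 12 late-numbered miRNAs that passed the filter, in each plasma library (left of each pair) and each blood cell library (right), with a symbol for each cow and a line at the mean of 4 cows. miR-6529a lay at 1930 RPMM or more in plasma and at 193 or less in blood cells. miR-6119-5p lay at 3137 RPMM or more in blood cells and at 162 or less in plasma. miR-2419-5p, miR-6119-3p, miR-2457 and miR-2478 overlapped between the fractions.

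miR-6529a was the late-numbered miRNA with the highest level in plasma, where it ranked 43 of all names. It lies at chr1:65888852-65888872 on the minus strand of bosTau4, the build of the deposited locations, and in RefSeq its gene overlaps that of GSK3B, a kinase of insulin and Wnt signalling, and the gene of miR-6529b. It had 3037, 3157, 3821 and 1930 RPMM in plasma of cows 44 to 47, against 153, 182, 193 and 163 RPMM in their blood cells. Every plasma library was above every blood cell library, and the mean was 17.3 times as high (2986 ± 784 RPMM in plasma, 173 ± 18.2 RPMM in blood cells). Its log2 fold change, plasma over blood cells, was 2.40 (SE 0.15, edgeR adjusted p = 1.32e-05) with TMM and 4.08 with library totals (edgeR adjusted p = 6.49e-06), so miR-6529a was above the median of all tested names on both scales.

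miR-2376, at chr23:7775479-7775501 on the minus strand, has a gene that overlaps that of TAPBP (tapasin, which loads peptides onto MHC class I). It had 37.2, 35.8, 48.9 and 24.1 RPMM in plasma, against 2.86, 4.49, 4.25 and 3.88 RPMM in blood cells. The fractions did not overlap, and the mean was 9.44 times as high in plasma (36.5 ± 10.1 RPMM in plasma, 3.87 ± 0.716 RPMM in blood cells). Its log2 fold change was 1.53 (SE 0.23, edgeR adjusted p = 0.00088) with TMM and 3.20 with library totals (edgeR adjusted p = 4.66e-05).

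miR-3431, at chrX:21829475-21829496 on the minus strand, has a gene that overlaps GABRE, which encodes the epsilon subunit of the GABA-A receptor. It had 55.1, 53.7, 58.3 and 63.8 RPMM in plasma, against 7.34, 11.5, 12.9 and 17.4 RPMM in blood cells. All plasma libraries were above all blood cell libraries, and the mean was 57.7 ± 4.50 RPMM in plasma and 12.3 ± 4.15 RPMM in blood cells. With TMM the log2 fold change was 0.61 (SE 0.21, edgeR adjusted p = 0.0312), the smallest change among the 12, and with library totals it was 2.28 (edgeR adjusted p = 0.000117). The TMM call was lost when the cow was not used as a block (0.56, edgeR adjusted p = 0.127), when cow 44 was left out (0.44, edgeR adjusted p = 0.103) and when cow 45 was left out (0.62, edgeR adjusted p = 0.0662).

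The miRNAs listed next to miR-3431 on the same strand were also higher in plasma. miR-224, 1905 bases away, averaged 99.3 ± 12.0 RPMM in plasma and 8.51 ± 2.30 RPMM in blood cells (log2 fold change 1.90, SE 0.17, edgeR adjusted p = 6.4e-05 with TMM). miR-452, 2935 bases away, averaged 30.6 ± 8.82 RPMM in plasma and 1.11 ± 0.427 RPMM in blood cells (log2 fold change 3.08, SE 0.37, edgeR adjusted p = 0.000275). Within the cluster the highest plasma level was thus that of miR-224 and the highest blood cell level that of miR-3431.

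miR-6119-5p was the late-numbered miRNA with the highest level in blood cells, where it ranked 27 of all names, against 139 in plasma. It is listed at 10877 to 10899 on the plus strand of the unplaced scaffold Un.004.245, and in RefSeq its gene overlaps that of RPL39, a protein of the large ribosomal subunit. It had 162, 153, 126 and 84.7 RPMM in plasma, against 3137, 3867, 4390 and 3688 RPMM in blood cells. The highest plasma library was far below the lowest blood cell library, with means of 131 ± 34.5 RPMM in plasma and 3770 ± 517 RPMM in blood cells. Its log2 fold change was -6.55 (SE 0.25, edgeR adjusted p = 4.02e-06) with TMM and -4.87 with library totals (edgeR adjusted p = 8.11e-06). Only 3 of the 209 tested names had a lower log2 fold change with TMM.

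The other arm of the same hairpin, miR-6119-3p, is listed at 10918 to 10940 on that scaffold. It had 41.3, 37.1, 55.5 and 27.4 RPMM in plasma, against 61.6, 47.2, 40.3 and 35.9 RPMM in blood cells. The ranges overlapped, and the means were 40.3 ± 11.7 RPMM in plasma and 46.3 ± 11.2 RPMM in blood cells. It was called lower in plasma with TMM (log2 fold change -1.88, SE 0.21, edgeR adjusted p = 0.000177) and was not called with library totals (-0.21, edgeR adjusted p = 0.393).

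The arms of miR-6119 can also be set against each other within a library, which needs no scaling between libraries. For each read of miR-6119-3p there were 3.92, 4.12, 2.28 and 3.09 reads of miR-6119-5p in plasma of cows 44 to 47, against 50.9, 82.0, 109 and 103 in their blood cells. The ratio was lower in plasma in 4 of 4 cows and the fractions were far apart. The difference of the log2 ratio, plasma minus blood cells, averaged -4.66 ± 0.82 (SD, n = 4 cows). An exact two-sided paired permutation test gave p = 0.125, the smallest that 4 pairs allow, and the comparison was chosen after the values had been seen. Of all reads of the hairpin, 76.8% came from the 5p arm in plasma and 98.8% in blood cells.

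**Figure D2:**
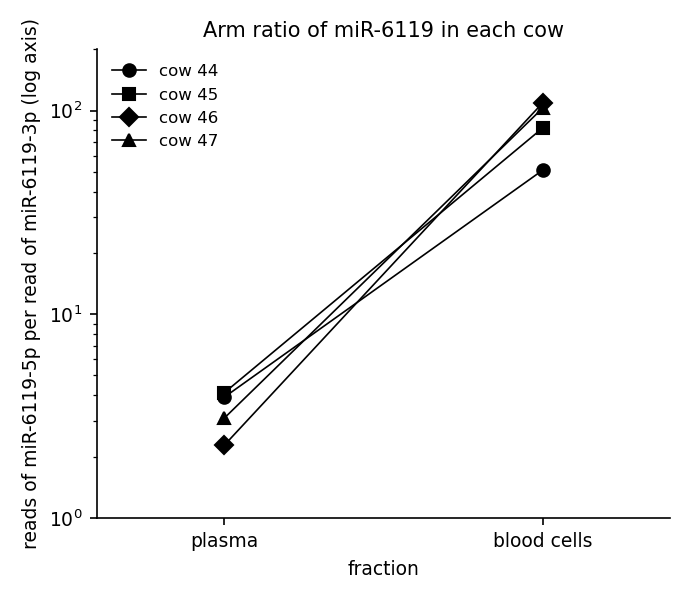
Reads of miR-6119-5p per read of miR-6119-3p (log axis) in plasma and blood cells, with a line for each of the 4 cows. The 4 plasma ratios lie between 2.28 and 4.12, and the 4 blood cell ratios between 50.9 and 109.

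miR-6120-3p, at chr7:43910829-43910850 on the plus strand, has a gene that overlaps that of CSNK1G2, a kinase of the casein kinase 1 family. It had 32.4, 45.2, 34.1 and 30.9 RPMM in plasma, against 132, 164, 144 and 169 RPMM in blood cells. All plasma libraries were below all blood cell libraries, with means of 35.6 ± 6.54 RPMM in plasma and 152 ± 17.3 RPMM in blood cells. Its log2 fold change was -3.78 (SE 0.18, edgeR adjusted p = 4.87e-06) with TMM and -2.11 with library totals (edgeR adjusted p = 5.34e-05). The other arm, miR-6120-5p, had 1 read over the 4 plasma libraries and 9 over the 4 blood cell libraries, so nearly all reads of this hairpin came from the 3p arm in both fractions.

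miR-6123, at chr13:58300869-58300889 on the plus strand, was in the same way lower in plasma. It had 53.7, 49.3, 60.5 and 26.5 RPMM in plasma, against 140, 92.7, 174 and 86.8 RPMM in blood cells. The fractions did not overlap, with means of 47.5 ± 14.7 RPMM in plasma and 123 ± 41.4 RPMM in blood cells. The log2 fold change was -3.05 (SE 0.20, edgeR adjusted p = 1.61e-05) with TMM and -1.38 with library totals (edgeR adjusted p = 0.0006). The arms of the neighbouring hairpin on the same strand went in opposite directions with TMM. In RPMM, however, both arms had the higher mean in plasma, so the opposite directions rest on the zero point. miR-296-5p, 243 bases away, had 36.7 ± 7.16 RPMM in plasma and 26.3 ± 5.33 RPMM in blood cells (log2 fold change -1.18, SE 0.18, edgeR adjusted p = 0.00089 with TMM). miR-296-3p, 277 bases away, had 1419 ± 228 RPMM in plasma and 55.1 ± 3.99 RPMM in blood cells (log2 fold change 3.00, SE 0.18, edgeR adjusted p = 1.2e-05 with TMM).

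miR-2457, miR-2336 and miR-6524 were lower in plasma on both scales, by less. miR-2457 lies at chr7:20813866-20813887 on the minus strand, and its gene overlaps that of SLC22A4, a transporter of organic cations and ergothioneine. It had 10.3, 11.9, 17.0 and 14.2 RPMM in plasma, against 16.2, 30.2, 34.0 and 35.9 RPMM in blood cells. The ranges overlapped through the blood cells of cow 44, yet plasma was lower in each cow (log2 fold change -2.77, SE 0.19, edgeR adjusted p = 1.92e-05 with TMM, -1.11 and 0.00275 with library totals). miR-2336, at chr19:22276075-22276096 on the plus strand, had 15.1, 20.1, 15.4 and 9.98 RPMM in plasma, against 25.3, 28.4, 30.9 and 22.4 RPMM in blood cells. Its fractions did not overlap (log2 fold change -2.51, SE 0.20, edgeR adjusted p = 3.66e-05 with TMM, -0.85 and 0.00803 with library totals).

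miR-6524 lies at chr26:31723064-31723084 on the plus strand, and its gene overlaps that of PDCD4, an inhibitor of translation. It had 77.1, 120, 100 and 83.1 RPMM in plasma, against 137, 129, 145 and 146 RPMM in blood cells. All plasma libraries were below all blood cell libraries, though the highest plasma library came close to the lowest blood cell library. Its log2 fold change was -2.24 (SE 0.20, edgeR adjusted p = 5.68e-05) with TMM and -0.57 with library totals (edgeR adjusted p = 0.0261).

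miR-2419-5p and miR-2478 were called with TMM but not with library totals. miR-2419-5p, at chr4:68649875-68649896 on the minus strand, had 306, 295, 270 and 235 RPMM in plasma, against 332, 275, 263 and 262 RPMM in blood cells. The fractions overlapped almost wholly (277 ± 31.4 RPMM in plasma, 283 ± 33.1 RPMM in blood cells), and the log2 fold change was -1.70 (SE 0.15, edgeR adjusted p = 5.93e-05) with TMM and -0.03 with library totals (edgeR adjusted p = 0.856). Among the 12 it was the name whose call rested most plainly on the zero point.

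miR-2478, at chr9:28787349-28787368 on the minus strand, had 38.5, 5.66, 33.5 and 6.27 RPMM in plasma, against 44.8, 29.8, 32.0 and 36.7 RPMM in blood cells. Plasma of cows 45 and 47 was low and plasma of cows 44 and 46 was close to blood cells. Its log2 fold change was -2.87 (SE 0.49, edgeR adjusted p = 0.00166) with TMM, with values by cow of -1.94, -4.01, -1.77 and -3.99, and it was -1.19 with library totals (edgeR adjusted p = 0.0749). Its standard error was the largest of the 12.

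**Figure D3:**
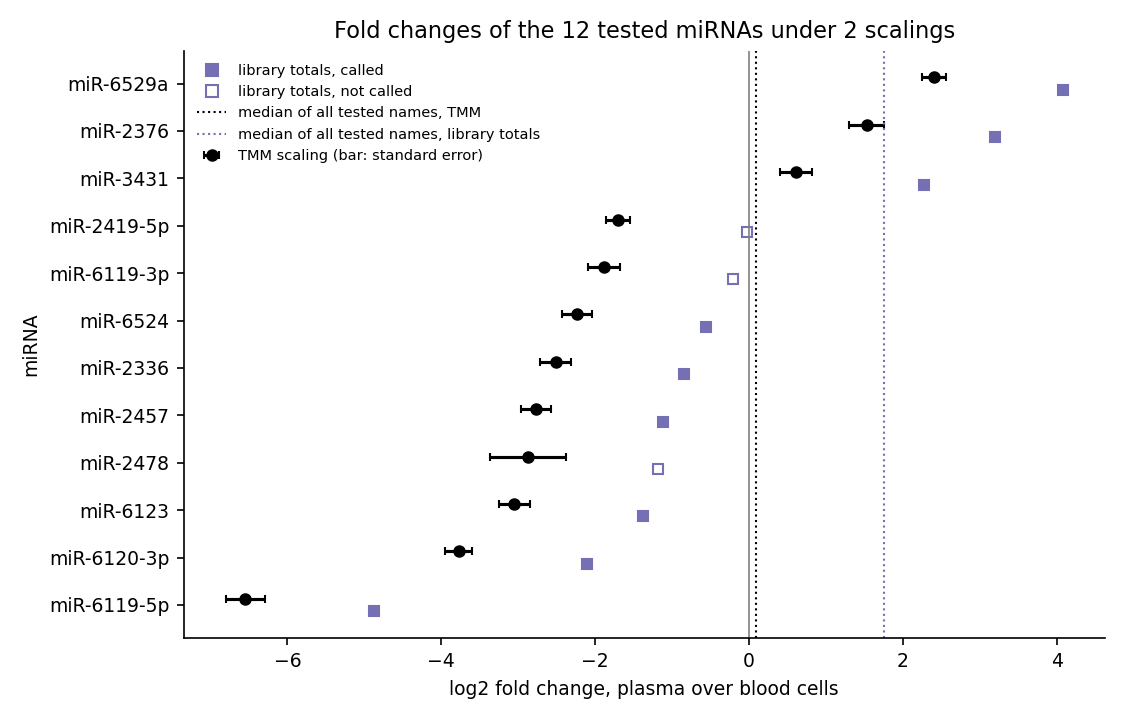
Plasma over blood cells as a log2 fold change for the 12 tested names, with TMM scaling (circles, bar = standard error) and with library totals (squares, filled where called), and dotted lines at the median of all 209 tested names on each scale. The 3 names higher in plasma stay right of 0 on both scales, and miR-2419-5p lies at -1.70 with TMM and at -0.03 with library totals.

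Below the filter, levels were described by reads. A name counted as detected in a library with over 10 reads there. Of the 178 names, 28 to 39 were detected in a plasma library and 46 to 55 in a blood cell library, or 19.0% and 28.1% of them on average. For the miR-2284 and miR-2285 names the average shares were 31.8% in plasma and 40.6% in blood cells, and for the lower-numbered bovine names 67.9% in plasma and 61.2% in blood cells. Blood cell libraries were deeper, and with all libraries thinned to 1453384 reads 21 to 28 of the 178 names were detected in plasma and 16 to 18 in blood cells. The higher number in blood cells thus turned round at equal depth. 104 names were detected in no library and 21 in all 8.

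3 names were detected in all 4 plasma libraries and in no blood cell library. How many of all names met this rule was not counted. miR-6518, whose gene overlaps that of ADM (adrenomedullin, a peptide that widens vessels), had 13, 27, 19 and 43 reads in plasma and 0 in every blood cell library, which makes its pooled level at least 156-fold higher in plasma when 3 reads over the 4 blood cell libraries are taken as the floor. miR-2474 had 11, 28, 15 and 39 reads in plasma and 2, 2, 0 and 0 in blood cells, a ratio of pooled RPMM of 106 (95% exact binomial interval 40.2 to 399, counting error only). miR-7861 had 17, 30, 20 and 32 reads in plasma and 6, 7, 10 and 8 in blood cells. Pooled RPMM rests on library totals. With TMM and no filter, the log2 fold changes were 8.01 for miR-6518, 4.96 for miR-2474 and 2.34 for miR-7861. Of these names, miR-6518 was the one with no read in blood cells, and it averaged 9.46 RPMM in plasma.

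11 names were detected in all 4 blood cell libraries and in no plasma library: miR-2319b, miR-2346, miR-2377, miR-2397-3p, miR-2424, miR-2440, miR-2446, miR-2448-3p, miR-2903, miR-3613a and miR-6536. Depth bears on this list, since 6 names met the plasma rule and 1 the blood cell rule after thinning. How many of all names met the blood cell rule was not counted either. miR-2903 had 3, 3, 4 and 4 reads in plasma and 132, 121, 172 and 116 in blood cells, or 1.53 ± 0.693 RPMM in plasma and 11.1 ± 2.56 RPMM in blood cells. miR-3613a, which shares its number with a human miRNA, had 0, 7, 1 and 1 reads in plasma and 65, 68, 51 and 47 in blood cells. In RPMM, both were below in every plasma library, whereas miR-2377, miR-2397-3p, miR-2446 and miR-2448-3p overlapped between the fractions.

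26 of the 178 names had no read in plasma, against 70 of all 704 names. In blood cells 30 of the 178 had none, against 127 of all 704. The highest of the names without plasma reads was miR-2318, whose gene overlaps that of MADD, with 46 reads in blood cells. Its pooled level was at least 3.35-fold lower in plasma, with 3 reads over the 4 plasma libraries as the floor. The highest of those without blood cell reads was miR-6518, above.

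In RPMM over all 178 names, every plasma library was above every blood cell library for 34 names (19.1%, against 35.7% of all 704 names), and every blood cell library was above every plasma library for 19 names (10.7%, against 11.8%). The other 125 names overlapped. When all names were tested without a filter with TMM, edgeR's test called 23 of the 178 higher in plasma (12.9%, against 25.3% of all names) and 40 higher in blood cells (22.5%, against 21.7%). With library totals and no filter it called 49 higher in plasma (27.5%, against 42.2%) and 14 higher in blood cells (7.87%, against 10.7%), an alternative chosen after seeing the data. The shares called higher in plasma were below those of all names under each of these rules, and the shares called higher in blood cells lay near or below them. Late-numbered names had fewer reads than most, and what part depth has in these shares was not tested.

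The 23 names called higher in plasma with TMM were also called with library totals, and 14 of the 40 called higher in blood cells were also called with library totals. Over all names the counts were 178 of 178 in plasma and 75 of 153 in blood cells. Without a filter, library totals moved the median log2 fold change over all names from 0.52 to 2.02, towards plasma. That plasma calls were kept was thus largely fixed in advance, and only blood cell calls were likely to be lost. The 14 late-numbered names were miR-2318, miR-2319b, miR-2336, miR-2346, miR-2424, miR-2440, miR-2457, miR-2478, miR-2903, miR-3613a, miR-6119-5p, miR-6120-3p, miR-6123 and miR-6536. miR-2478 was thus called with library totals when no filter was used (log2 fold change -1.20, edgeR adjusted p = 0.0198), and not when the filter was used. None of the 178 late-numbered names was called in opposite directions on the 2 scales, against 9 of all names, which were higher in blood cells with TMM and higher in plasma with library totals. One of the 23 in plasma, miR-2292, had 14 reads, all in the plasma of cow 47.

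**Figure D4:**
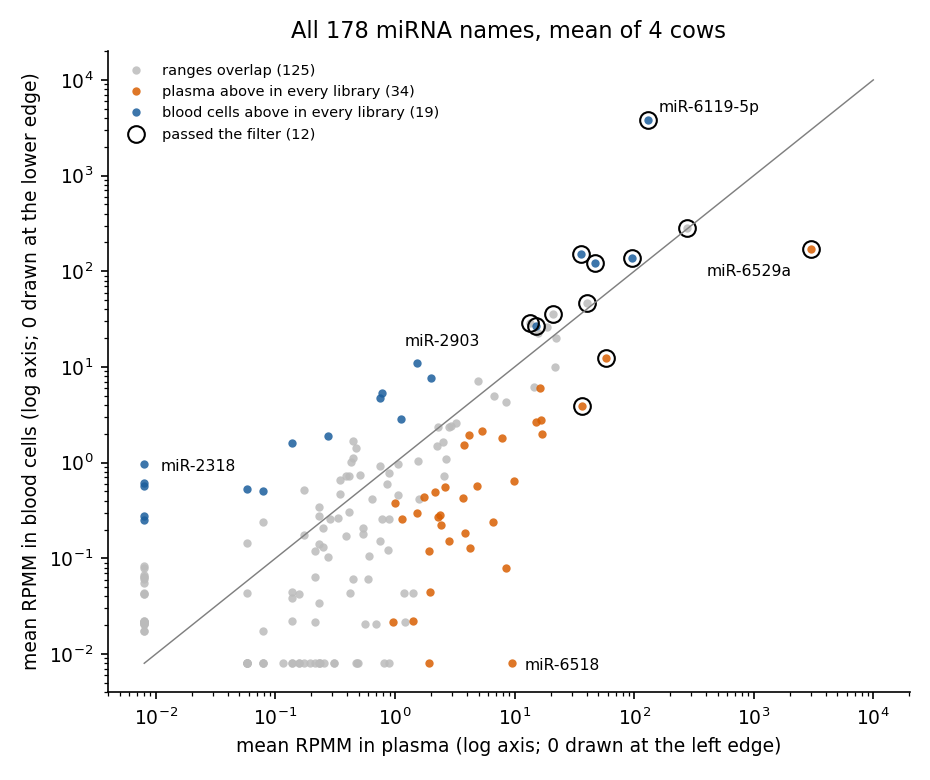
Mean RPMM of each of the 178 late-numbered names in plasma (horizontal, log axis) and blood cells (vertical, log axis), with names at 0 drawn at the edges and names that passed the filter ringed. 34 names have every plasma library above every blood cell library, 19 have every blood cell library above every plasma library, and 125 overlap.

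The 10 most abundant names below the filter averaged between 1.53 and 22.0 RPMM in plasma and between 1.98 and 26.1 RPMM in blood cells. miR-6517 was level between the fractions in RPMM (22.0 ± 2.49 in plasma, 19.9 ± 2.67 in blood cells), and miR-2403 averaged 21.6 ± 7.70 RPMM in plasma and 10.1 ± 3.03 RPMM in blood cells, with overlapping ranges. Every plasma library was above every blood cell library for miR-7857 (16.8 ± 8.32 RPMM in plasma, 1.98 ± 0.877 RPMM in blood cells), miR-2299-5p (15.1 ± 6.42 RPMM in plasma, 2.65 ± 1.18 RPMM in blood cells), miR-2904 (16.8 ± 14.1 RPMM in plasma, 2.81 ± 0.190 RPMM in blood cells) and miR-6523a (16.5 ± 8.06 RPMM in plasma, 5.98 ± 1.23 RPMM in blood cells). miR-2320-5p had 15.7 ± 6.85 RPMM in plasma and 22.9 ± 2.96 RPMM in blood cells, and miR-4286 had 14.4 ± 8.83 RPMM in plasma and 6.18 ± 2.36 RPMM in blood cells, with overlap in each. At these levels miR-2903, with the lowest plasma mean, was the one name of the 10 for which every plasma library was below every blood cell library. RPMM rests on library totals. With TMM and no filter, edgeR's test still called miR-7857 and miR-2299-5p higher in plasma. It did not call miR-2904 (log2 fold change 0.71, edgeR adjusted p = 0.0863), miR-6523a (-0.21, edgeR adjusted p = 0.562), miR-2403 or miR-4286. miR-6517 (-1.43, edgeR adjusted p = 0.000183), miR-2320-5p (-2.23), miR-2415-3p (-2.23) and miR-2903 were called higher in blood cells.

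By number, the 25 names from 6000 to below 7000 held the most abundant members. 6 of these 25 passed the filter (24.0%), against 5 of 124 numbered under 2500, 1 of 14 from 3000 to below 6000, and none of the 6 from 2500 to below 3000 or the 9 from 7000 up. The 25 names summed to 3400 RPMM in plasma and 4438 RPMM in blood cells, and the 124 names under 2500 to 562 RPMM in plasma and 517 RPMM in blood cells. These sums again rest on miR-6529a in plasma and miR-6119-5p in blood cells. A list of 7 numbers that are also those of human miRNAs was looked up, which is not all such numbers, and 6 of them were found, under 7 names. None of these 7 names passed the filter, miR-4286 was the highest of them in both fractions, and among them only miR-3613a did not overlap between the fractions.

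Both arms were listed for 23 hairpins. For miR-6119 the 5p arm led in both fractions, by different ratios as given above. For miR-2313 the leading arm differed between the fractions, with 37 reads of the 5p arm and 5 of the 3p arm in plasma, against 7 of the 5p arm and 82 of the 3p arm in blood cells. miR-2483 had 26 reads of the 5p arm and 44 of the 3p arm in plasma, against 11 of the 5p arm and 6 of the 3p arm in blood cells. miR-2411 had 21 reads of the 5p arm and 7 of the 3p arm in plasma, against 25 of the 5p arm and 39 of the 3p arm in blood cells. miR-2388 had 4 reads of the 5p arm and 6 of the 3p arm in plasma, against 37 of the 5p arm and 12 of the 3p arm in blood cells. For miR-2320 (83.6% from the 5p arm in plasma, 90.3% in blood cells) and miR-2299 (83.7% in plasma, 85.9% in blood cells) the 5p arm led in both fractions. All these reads are pooled over cows, and in plasma some cows went against the pooled arm, on few reads. The 5p share was 33.3% for miR-2313 and 40.0% for miR-2411 in plasma of cow 46. For miR-2388 it was 100% in plasma of cow 47. These arms were chosen for mention after their reads had been seen, and no test was made.

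Levels also varied between cows. Over the 12 tested names the median coefficient of variation among the 4 cows was 26.3% in plasma and 16.2% in blood cells, beside 24.0% and 18.8% over all tested names. miR-2415-3p had 7.57, 10.4, 44.5 and 11.6 RPMM in plasma of cows 44 to 47, and 19.5, 13.1, 49.5 and 22.1 RPMM in their blood cells. Cow 46 was thus the highest in both fractions. miR-2425-5p had 2, 0, 0 and 7 reads in plasma and 17, 3, 1 and 22 in blood cells, so cows 44 and 47 were the highest in both fractions, and miR-2425-3p had 0, 0, 0 and 6 reads in plasma and 10, 2, 0 and 10 in blood cells.

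For miR-2904 the cows differed in plasma and hardly in blood cells. It had 37.9, 11.3, 8.79 and 9.05 RPMM in plasma, against 3.04, 2.76, 2.58 and 2.84 RPMM in blood cells. miR-2887 varied in both, and more in plasma: listed 85 bases from miR-2904 on the same strand of an unplaced scaffold, it had 7.57, 1.26, 0.550 and 0.929 RPMM in plasma, against 0.447, 0.759, 0.666 and 1.03 RPMM in blood cells. Plasma of cow 44, the shallowest library, was the highest for both. Depth, RNA quality and individual differences in these names were not tested, and the names were picked for description after their values had been seen.

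**Figure D5:**
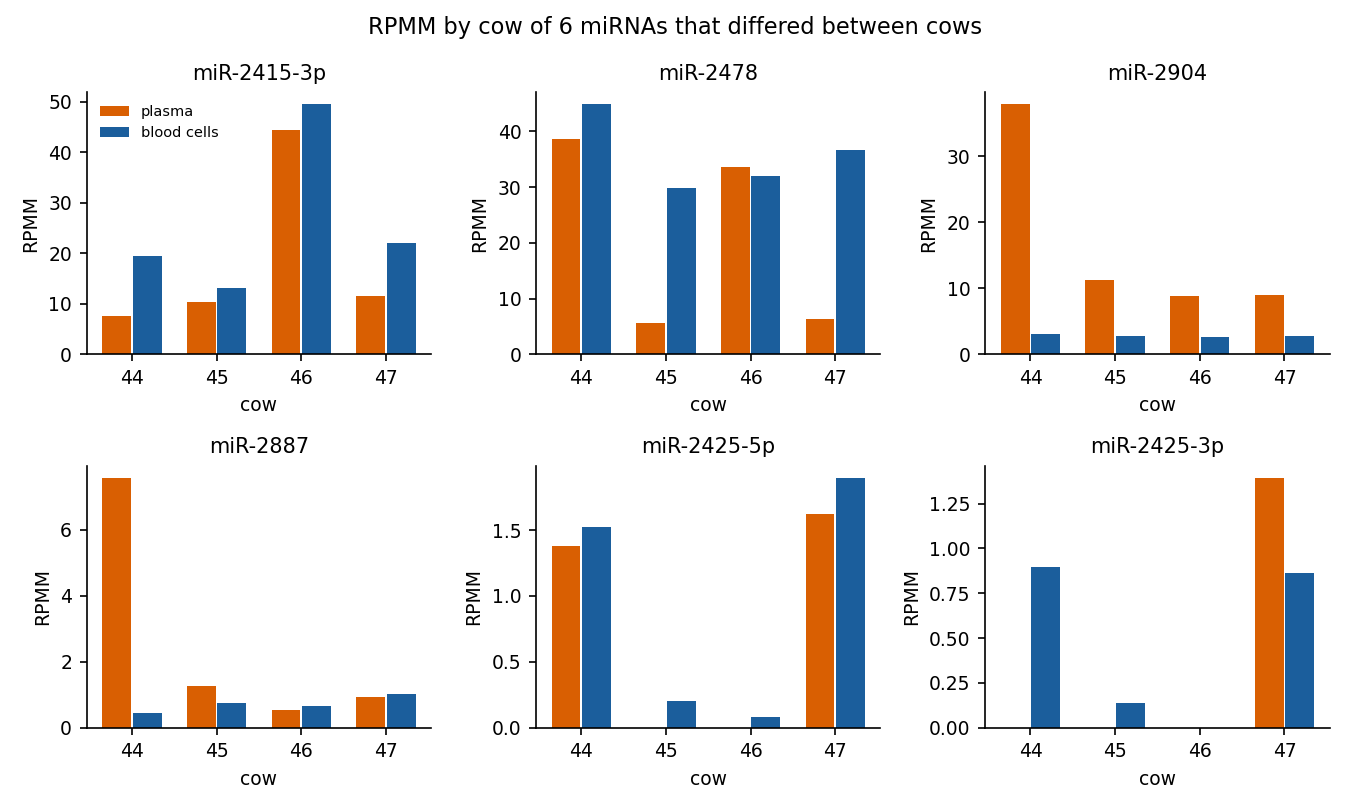
RPMM of 6 names in plasma (left bar) and blood cells (right bar) of each cow, each panel with its own vertical axis starting at 0. miR-2415-3p is highest in both fractions of cow 46, miR-2425-5p is higher in cows 44 and 47 in both fractions, miR-2425-3p is higher in those cows in blood cells and has plasma reads in cow 47 alone, miR-2904 and miR-2887 are highest in plasma of cow 44, and miR-2478 is low in plasma of cows 45 and 47.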

How the data were processed

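Small RNA of paired plasma and blood cells of 4 cows was sequenced in 36-base reads. The authors mapped reads to bosTau4 with sRNAbench and Bowtie 0.12.9, allowing a mismatch to the mature sequence, and the raw read counts they deposited are per mature miRNA name. They also deposited normalised reads (RPMM, entered as a score because bovine names and human homologues have separate denominators). RPMM were recomputed here from the counts with the value of 1 bovine read in each library, taken from the deposited table, and differed from the deposited values of bovine names by a relative 5.5e-07 at most.

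Counts were tested with edgeR 4.0.16 (limma 3.58.1, R 4.3.3) by the quasi-likelihood test, with TMM scaling and the cow as a block. Pairing comes from the animals: deviations of libraries of the same cow from their fraction mean correlated at 0.0508 to 0.234, and those of different cows at -0.174 to 0.106. Standard errors were derived from the test's F statistic. The script was tested on simulated data. Alternatives were no block, RLE size factors, library totals, DESeq2 1.42.0, the likelihood ratio test, other filters, a fit on bovine names alone and leaving each cow out in turn. Without a filter, library totals were added after seeing the data. An interval or floor covers counting error only, since copies made by PCR are not independent molecules, and p-values measure the spread between 4 cows.

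The names and lists were chosen with earlier results of these data known. Named with all values were those passing the filter. Given by range or reads were the 10 most abundant others, other arms of tested names, and names detected in every library of a single fraction. Other names mentioned were chosen after their values were seen. Gene names come from the RefSeq table of ARS-UCD2.0, which matched 165 of 178 names. Its coordinates were used only to find overlapping genes, counted whatever the strand. Sequences, RT-qPCR and unmapped reads were not analysed here.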

Additional observations from a re-analysis of the deposited data

Results flagged for a closer look

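72 groups of 4 libraries, from 36 names, were taken, of which the blood cells of miR-6518 were 0 throughout and could not be compared. In the other groups the highest or lowest library was compared with the rest by Dixon's gap test, and 7 passed. Chance passes about 1 of 20 groups of continuous values, a rate that does not hold for the 3 of these groups with reads in 1 library alone, which pass by construction. In plasma of cow 46 miR-2415-3p had 44.5 RPMM, against 7.57 to 11.6 in plasma of the other cows. miR-7857 had 29.2 RPMM in plasma of cow 45, against 11.8 to 13.7 in the others. miR-2904 had 37.9 RPMM in plasma of cow 44, against 8.79 to 11.3 in the others. Reads in 1 library alone made up the next 3 groups. In plasma of cow 46 miR-2424 had 0.550 RPMM (1 read) and miR-2440 had 1.10 RPMM (2 reads), with 0 in the other plasma libraries of each. miR-6120-5p had 0.688 RPMM (1 read) in plasma of cow 44 and 0 in the others. In blood cells of cow 44 miR-2446 had 1.79 RPMM, against 2.49 to 2.58 in the others.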

How the results depend on the processing

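Of 165 fold changes of the 12 tested names under alternatives, 156 kept their direction and their call, 9 kept their direction and lost the call, and none turned. The 9 were miR-2419-5p, miR-2478 and miR-6119-3p with library totals, miR-2419-5p, miR-6119-3p and miR-6524 (edgeR adjusted p = 0.0589) with library totals and no filter, and miR-3431 without the replicate block, without cow 44 and without cow 45. RLE size factors, DESeq2, the likelihood ratio test and bovine names only gave the same calls for the 12. Without the replicate block, which here is the pairing of the libraries of a cow, 2 of the 12 were higher in plasma and 9 in blood cells, and 94 and 80 of all tested names. With a cow left out, 2 to 3 of the 12 were higher in plasma and 9 in blood cells. Of all tested names, 87 to 93 were then higher in plasma and 76 to 82 in blood cells.

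Counts moved most with the filter and the zero point. With a filter of 10 RPMM, 5 of the 20 late-numbered names tested were called higher in plasma, against 121 of all 253 names tested. Higher in blood cells with that filter were 13 of the 20 and 100 of the 253. Of all 178 late-numbered names, 23 were called higher in plasma with no filter. The count was 49 with no filter and library totals, an alternative chosen after seeing the data. For blood cells the counts were 40 with no filter and 14 with no filter and library totals. Over all names, 178 were higher in plasma with no filter and 297 with no filter and library totals. For blood cells over all names, 153 were called with no filter and 75 with no filter and library totals. With the filter of 25 RPMM and library totals, 52 of the 209 names tested were called higher in blood cells. More names enter without a filter, and library totals move the median log2 fold change to 1.76 with the filter and to 2.02 without it. Thinned to equal depth, 6 names were detected in every plasma library and no blood cell library, and 1 the other way round. With at least 25 RPMM in all 4 libraries, miR-2336, miR-2376 and miR-2457 were not tested. Summing names that differ by a letter was not run, since no such names share an arm.

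Depth limits the low names: 104 of 178 had over 10 reads in no library, and a difference between a few reads in plasma and none in blood cells was not resolved for most of them.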

Other observations

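17 of the 178 names lay within 10 kb of another listed miRNA, and 15 of them next to a name that is not late-numbered. miR-3956 and miR-3957 lie on chromosome 21 among the miRNAs of the imprinted DLK1-DIO3 cluster, a locus known for its expression in development, muscle and brain. miR-3956 had 4, 5, 3 and 8 reads in plasma and 2, 0, 0 and 0 in blood cells, a ratio of pooled RPMM of 45.8 (95% exact binomial interval 11.1 to 404). miR-3957 had 4, 1, 3 and 13 reads in plasma and 0 in all blood cell libraries, at least 32.0-fold higher in plasma with 3 reads over the 4 blood cell libraries as the floor. These pooled values rest on library totals. With TMM and no filter, the log2 fold changes were 3.68 for miR-3956 and 5.70 for miR-3957. The abundant neighbours of both names were also higher in plasma. Their TMM log2 fold changes were 4.28 for miR-381, 5.67 for miR-369-3p and 5.44 for miR-410 (edgeR adjusted p of 1.8e-05, 9.0e-06 and 6.3e-06).

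miR-3120 is listed 21 bases from miR-214 on the opposite strand of chromosome 16, and its gene overlaps that of DNM3 in RefSeq. It had 4, 18, 10 and 6 reads in plasma and 0, 2, 4 and 3 in blood cells, and miR-214 had a TMM log2 fold change of 9.49 (edgeR adjusted p = 6.7e-06), with means of 76.0 RPMM in plasma and 0.0224 RPMM in blood cells. miR-199a-5p and miR-199a-3p, on the strand of miR-214, went in opposite directions with TMM. miR-199a-5p averaged 358 RPMM in plasma and 0.384 RPMM in blood cells (log2 fold change 8.25, SE 0.42). miR-199a-3p averaged 1071 RPMM in plasma and 2366 RPMM in blood cells (log2 fold change -11.21, SE 2.99, edgeR adjusted p = 0.0121). The fold change of miR-199a-3p is far larger than its means give and has a large standard error, so its size is not reliable. Some names by abundant neighbours had few reads. miR-2475, in the cluster of miR-23b, miR-27b and miR-24, averaged 0.216 RPMM in plasma and 0.119 RPMM in blood cells, where miR-27b averaged 43371 RPMM in plasma and 7140 RPMM in blood cells. miR-2957 is listed at the position of miR-152 on the opposite strand and had 1 read in all.

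Of the 143 RefSeq miRNA genes matched by late-numbered names, 121 (84.6%) overlapped a protein-coding gene, against 560 of the other 889 bovine miRNA genes (63.0%), counted without strand. This share is a description of the annotation with no test.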
